A study of Mus musculus with 4 samples.

Results

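The blood vessels of the pancreatic islet and the growth factors that act on them were followed through 45 genes listed by symbol. The list covers endothelial surface, junction and secreted proteins, angiogenic receptors, endothelial and lymphatic transcription factors, pericyte genes and ligands. A row was found for 43 of the 45 symbols among 55487 genes. The symbols Cldn5l and Abcc9l matched no row and were not analysed here. All 43 genes had a value of at least 10 in all 4 libraries, so the filter on low values removed none of them.

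RNA was taken from freshly isolated islets of C57BL/6 mice aged 30 weeks and enriched for poly(A) transcripts before sequencing. The 2 control libraries came from mice with both Ggcx alleles floxed and no Cre, labelled Ggcx flox/flox. The 2 knockout libraries came from Ggcx flox/flox; Pdx1-Cre mice, in which Cre follows the Pdx1 promoter of the pancreatic epithelial lineage. A library is a pool from 2 mice, which gives 2 pools for each genotype (n = 2). No group carried Pdx1-Cre with unfloxed Ggcx, so the transgene and the loss of Ggcx cannot be told apart. The control libraries are named by their column numbers, 2 and 3, which differ from the numbering in the labels.

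Islets are supplied by a dense capillary bed whose endothelium is fenestrated, with pores closed by a diaphragm of the protein PLVAP. Beta cells secrete VEGF-A, which acts on endothelial cells through the receptors KDR (VEGFR2) and FLT1 (VEGFR1), while placental growth factor (PGF) and VEGF-B bind FLT1 and not KDR. Angiopoietin 1 activates the endothelial receptor TEK (TIE2), and angiopoietin 2 can oppose it. Pericytes wrap the capillaries and are recruited there by PDGF-B from the endothelium. Endothelial cells and pericytes descend from mesoderm and not from the Pdx1 lineage.

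Values are read counts normalized to library size, and each log2 fold change sets knockout against control after adding 1 to the values, with its standard error (SE). A gene was called when its limma p, adjusted by Benjamini-Hochberg over all 16589 genes tested, was under 0.05. Reads assigned to genes ranged from 47624630 to 51756221 per library, and the lowest value of any listed gene, for Aplnr, rested on 14 reads. The targeted gene, Ggcx, fell from 3971 and 3981 normalized counts in controls to 234 and 643 in knockouts. Because whole islets were used, fewer cells of a type and less RNA per cell cannot be told apart.

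Control column 3 stood apart in the vascular genes, as it was the lowest of the 4 libraries for 28 of the 43 listed genes (65.1%), against 26.4% of all tested genes. It was below control column 2 for 36 of the 43, with a median log2 difference of -0.15, while the median over all tested genes was 0.00. The median absolute log2 difference over the 43 genes was 0.16 between the control pools, 0.09 between the knockout pools and 0.08 between the means of the genotypes. Over all tested genes these values were 0.11, 0.09 and 0.10. Means of 2 pools vary less than single pools, so the last value is not directly comparable with the others. The 43 genes together took 0.1985% and 0.1882% of normalized counts in controls and 0.1934% and 0.2002% in knockouts.

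The promoter windows of Pgf, the only listed gene that was called, of its receptor gene Flt1 and of Vegfa, the most abundant ligand, are shown first because the results set these genes side by side. They are RefSeq windows on GRCm38.p6 that run from 250 bases before to 50 after a transcript start, read 5′ to 3′ on the gene's own strand, which is minus for all of them. Capitals mark the core letters bound by hypoxia-inducible factor (HIF), ACGTG or GCGTG, on either strand. The Pgf window lies at chr12:85177264-85177563, that of Flt1 at chr5:147725962-147726261 and that of Vegfa at chr17:46032328-46032627. The Pgf window lies wholly inside the gene as annotated, whose 5′ end is at 85177790. Those of Flt1 and Vegfa span the annotated 5′ ends of their genes, at 147726011 and 46032369.
Pgf: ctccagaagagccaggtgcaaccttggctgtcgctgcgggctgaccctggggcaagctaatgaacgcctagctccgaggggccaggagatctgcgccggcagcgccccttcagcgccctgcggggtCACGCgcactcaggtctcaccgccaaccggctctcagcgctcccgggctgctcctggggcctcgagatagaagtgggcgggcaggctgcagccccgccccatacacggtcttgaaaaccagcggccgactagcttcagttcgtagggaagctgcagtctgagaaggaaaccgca
Flt1: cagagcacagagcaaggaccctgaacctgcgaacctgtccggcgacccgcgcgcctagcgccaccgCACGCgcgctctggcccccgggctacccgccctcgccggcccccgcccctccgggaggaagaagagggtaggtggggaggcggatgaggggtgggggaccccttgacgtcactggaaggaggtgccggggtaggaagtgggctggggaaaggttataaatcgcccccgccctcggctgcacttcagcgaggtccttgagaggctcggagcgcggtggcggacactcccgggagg
Vegfa: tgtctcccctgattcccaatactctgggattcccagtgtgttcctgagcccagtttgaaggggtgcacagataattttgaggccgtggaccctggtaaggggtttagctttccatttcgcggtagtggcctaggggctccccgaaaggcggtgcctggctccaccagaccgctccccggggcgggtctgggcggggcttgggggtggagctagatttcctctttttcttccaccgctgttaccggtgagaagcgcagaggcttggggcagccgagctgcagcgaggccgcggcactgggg
Pgf and Flt1 each held 1 match and Vegfa none in these 300 bases. Windows were found for 25 of the 43 genes, 34 windows in all, of which 15 held a HIF core, or 44.1%, beside 43.8% of all 32851 windows in the table. The core CCGGAA of ETS factors, the family of Erg and Fli1, was in 1 of the 34 windows and in 14.9% of all windows. These matches describe the letters and mark no binding.

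**Figure D1:**
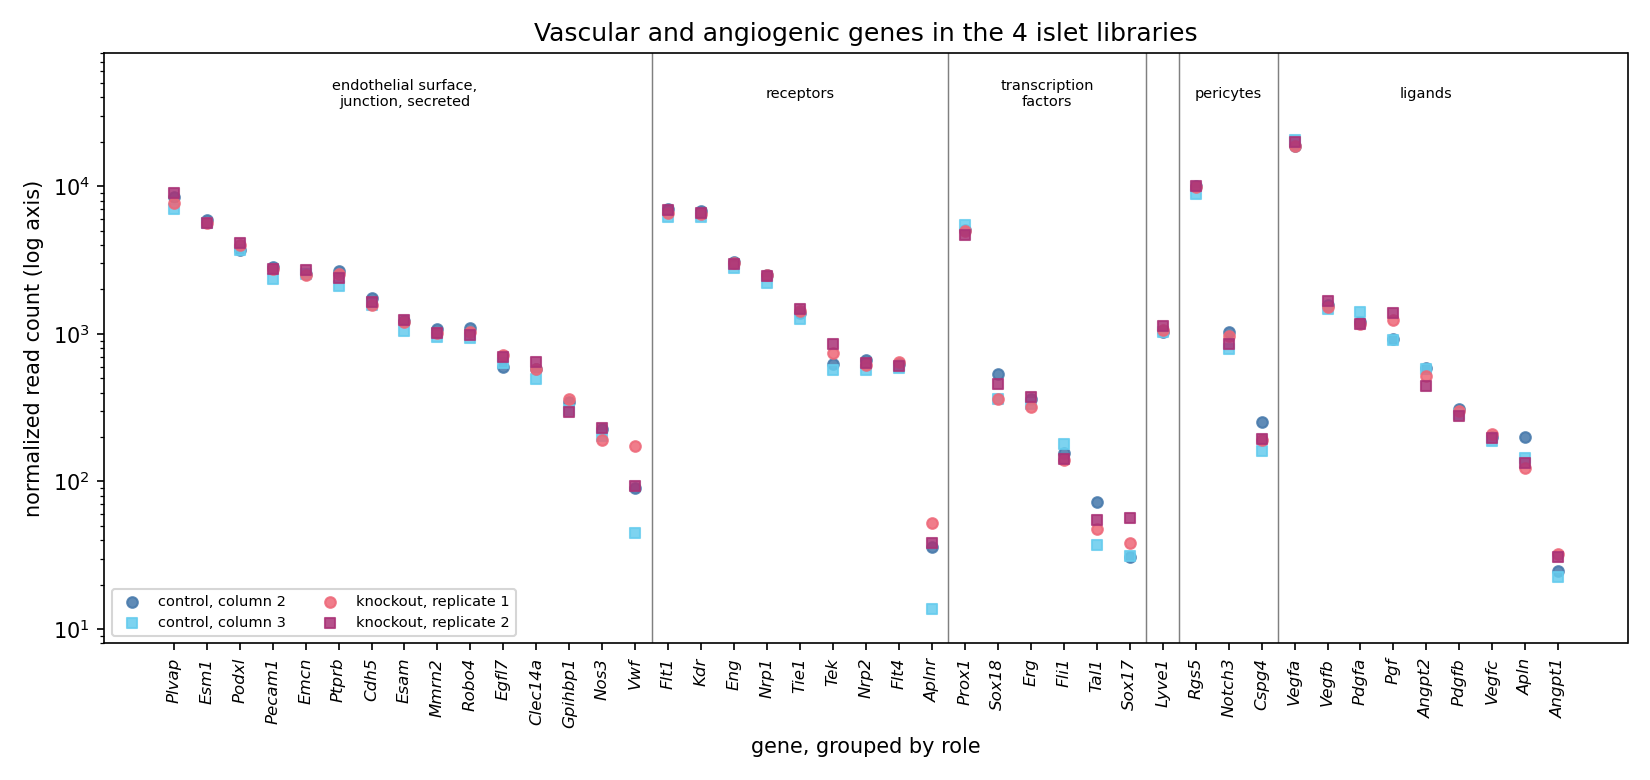
Normalized read count (log axis) of each of the 43 genes in the 4 libraries, grouped by role; circles and squares are single pools, blue for control and red or purple for knockout. For most genes the 4 points nearly coincide, and the knockout points of Pgf, at 1244 and 1391, lie above its control points at 929 and 906.

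Per kilobase of exon, the most abundant listed transcript was Vegfa, with a mean level of 4554 normalized counts per kb over the 4 libraries. Plvap, the fenestral diaphragm gene, followed at 4034, then Esm1, a proteoglycan secreted by endothelial tip cells, at 2725. Rgs5, a regulator of G protein signalling that marks pericytes, stood at 2140.5 per kb. Below these came Vegfb at 972 per kb, and then Eng, Kdr and Podxl at 730.0, 724 and 707, which are neighbours in order and close in level. The lowest levels were those of Aplnr at 9.45, Sox17 at 8.22, Vwf at 6.25 and Angpt1 at 5.28 per kb. Vwf encodes von Willebrand factor, which is known to be low in many capillaries and high in larger vessels. Cldn5, a tight junction gene of endothelium that is not among the 45, was below the filter at a mean of 8.74 normalized counts.

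**Figure D2:**
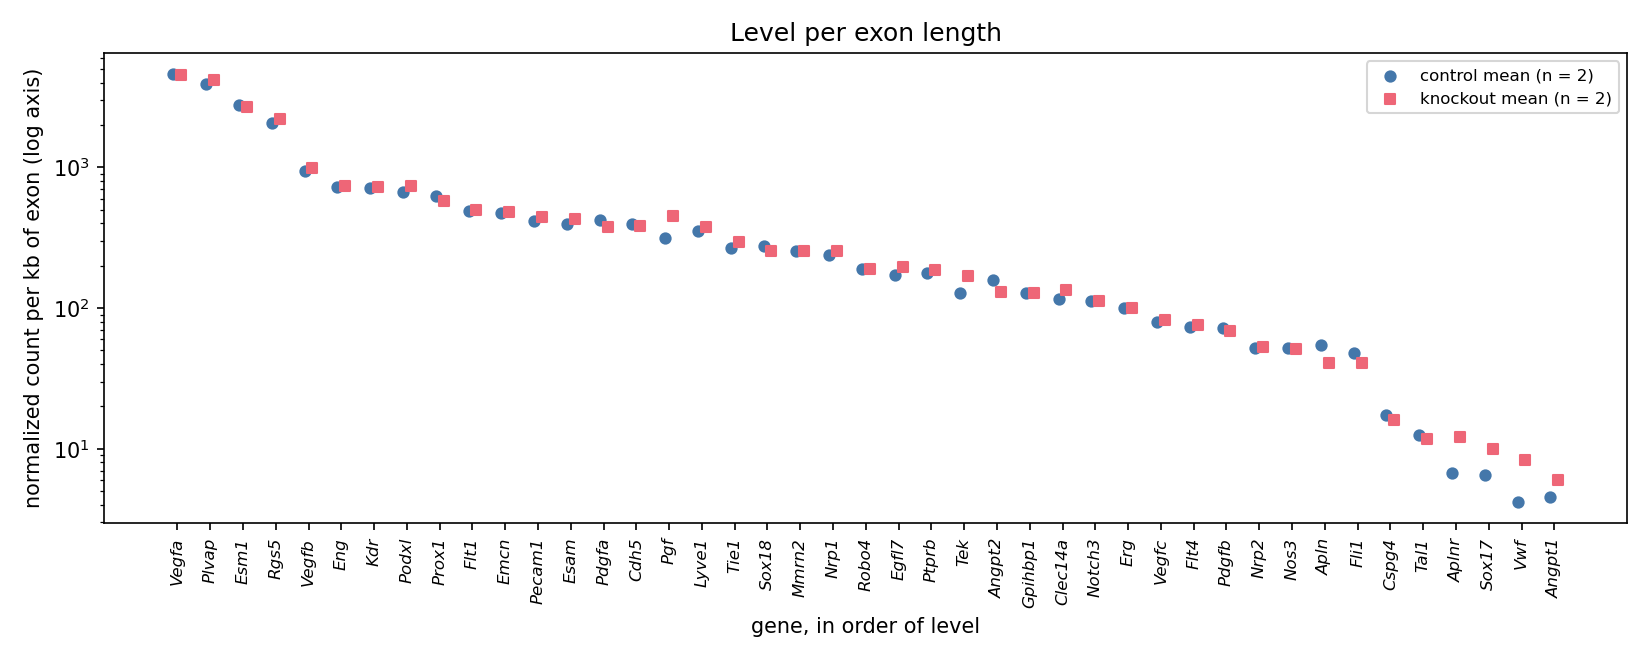
Mean normalized count per kb of exon (log axis) of the 43 genes in order of level, for control and knockout islets (n = 2 pools each). Vegfa at 4554 and Plvap at 4034 over all libraries lie at the top and Angpt1 at 5.28 at the bottom, and the control and knockout means of most genes lie side by side.

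Of the 43 listed genes, 1 rose in knockout islets and none fell. The gene that rose was Pgf. For comparison, 0.247% of all tested genes were called higher and 0.374% lower, or 0.621% in either direction. At an unadjusted p under 0.05, 6 listed genes were higher and 2 lower, or 8 of 43. Of all 16589 tested genes, 1118 were higher and 1218 lower at that p, or 14.1%. The median log2 fold change of the 43 genes was 0.03, beside 0.00 over all tested genes. It was 0.12 without control column 2 and -0.05 without control column 3. The log2 fold change was above 0 for 29 of the 43 (67.4%), beside 50.1% of all tested genes, and for 36 without control column 2 and 16 without control column 3. Leaving out 1 library changed the sign for 23 of the 43, and changed the sign or moved the value by over 1.5 times for 38. These counts were not made for all tested genes, so they do not tell whether the listed genes differ from the rest. The median absolute log2 fold change was 0.08 for the listed genes and 0.10 for all tested genes. The pools of the genotypes did not overlap for 17 of the 43 genes. Knockouts were higher for 11 (25.6%) and lower for 6 (14.0%), beside 22.0% and 23.0% of all tested genes, so the share with higher knockout values was near that background.

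Pgf (ENSMUSG00000004791; GRCm38 chromosome 12, 85166635 to 85177790, minus strand) encodes placental growth factor, a VEGF family ligand of FLT1 and neuropilin 1. The control pools held 929 and 906 normalized counts of Pgf and the knockout pools 1244 and 1391. Both knockout pools were above both control pools, and the controls differed little. The mean rose from 917 ± 16.1 to 1318 ± 104 (SD, n = 2 each), a 1.43-fold rise with a 95% interval of 1.28 to 1.61. The log2 fold change was 0.52 ± 0.07 (SE), with a limma adjusted p of 0.0366. The authors' deposited table gives a knockout over control log2 fold change of 0.52 ± 0.11 (SE) and an adjusted p of 0.000413 for Pgf, the only call among the 40 listed genes with an adjusted p there. Of all genes with an adjusted p in the authors' deposited table, 2.35% were called.

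The call of Pgf was lost without control column 3 (adjusted p = 0.0515), without the mean-variance trend (0.326) and with no filter on low values (0.217). Stellate cell and fibroblast markers summed to 2169 and 1850.0 normalized counts in controls and to 3464 and 2689.6 in knockouts. Both knockout pools were higher, as for Pgf. Knockout replicate 1 was the highest pool for these markers, and knockout replicate 2 for Pgf. Summed markers of Schwann cells, red blood cells and lymphocytes, and endothelial markers outside the list of 45, were also higher in both knockout pools. Knockout replicate 2 was the highest for the Schwann cell, red blood cell and endothelial sums. The knockout pools were nearly equal for lymphocyte markers. Acinar markers summed to 15621 and 17518 in controls and to 7613 and 12942 in knockouts. The part of any of these cell types in the Pgf result was not tested.

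Vegfa (ENSMUSG00000023951; GRCm38 chromosome 17, 46016993 to 46032369, minus strand) stood at 18681 and 20588 normalized counts in controls and at 18697 and 20096 in knockouts. The knockout pools lay between the control pools. Its log2 fold change was -0.02 ± 0.06 (SE; 95% interval -0.16 to 0.12; adjusted p = 0.944), with no stable sign across the alternatives. Vegfb, the other abundant ligand of FLT1, stood at 1569 and 1474 in controls and 1522 and 1678 in knockouts, and Vegfc, the lymphatic growth factor, at 199 and 188 against 208 and 198. The genotypes overlapped for both genes, with log2 fold changes of 0.07 ± 0.07 and 0.07 ± 0.12 (SE).

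The angiopoietin ligands had different signs, and neither passed the test. Angpt2, which encodes a context-dependent antagonist of TEK, stood at 584 and 576 normalized counts in controls and at 517 and 444 in knockouts. Its ranges did not overlap, with a log2 fold change of -0.28 ± 0.10 (SE; adjusted p = 0.240). Angpt1, the TEK agonist, was scarce, at 24.5 and 22.4 in controls and 32.3 and 30.7 in knockouts, with a log2 fold change of 0.41 ± 0.27 (adjusted p = 0.561).

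Among the remaining ligands, Apln, which encodes the peptide apelin made by endothelial tip cells, stood at 201 and 144 in controls and 123 and 133 in knockouts. Its log2 fold change was -0.41 ± 0.18 (SE; adjusted p = 0.347), with no overlap between genotypes. It was -0.17 without control column 2 and -0.65 without control column 3. Pdgfa, a ligand of mesenchymal PDGF receptors, stood at 1211 and 1409.7 in controls and 1173 and 1162 in knockouts, also without overlap and also not called (log2 fold change -0.16 ± 0.08; adjusted p = 0.414, and -0.05 without control column 3). Exons of Pdgfa share 813 bases with a gene on the opposite strand, so its reads are uncertain. Pdgfb, which recruits pericytes, stood at 311 and 286 against 298 and 278, with a log2 fold change of -0.05 ± 0.11. Of the 9 ligand genes, Pgf rose and 8 did not pass the test, with a median log2 fold change of -0.02, which was 0.03 without control column 3.

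**Figure D3:**
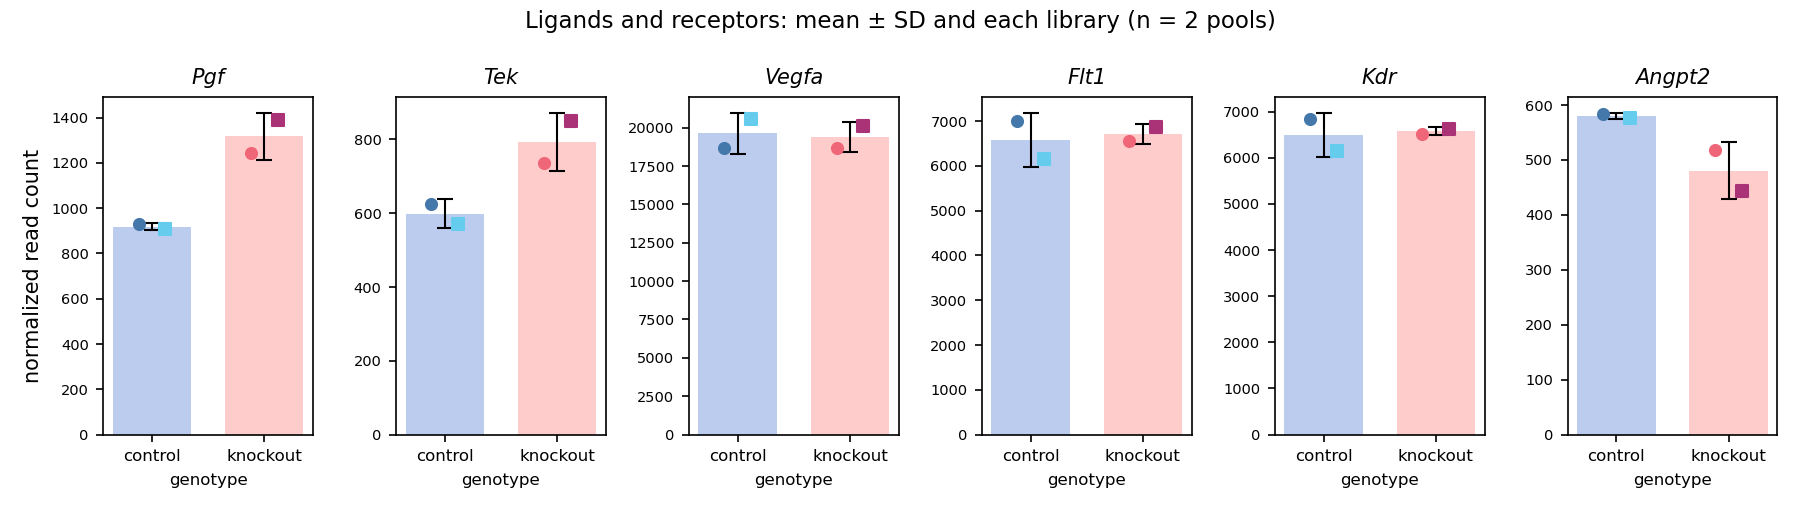
Normalized read count of the ligand genes Pgf, Vegfa and Angpt2 and the receptor genes Tek, Flt1 and Kdr by genotype; bars are means from 0, error bars SD (n = 2 pools), and points single pools. Pgf is higher in both knockout pools (1244 and 1391) than in both controls (929 and 906), while the pools of Vegfa, Flt1 and Kdr overlap.

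None of the 9 receptor and co-receptor genes passed the test. Their log2 fold changes were all above 0, with a median of 0.05, but without control column 3 only 3 of the 9 were above 0 (Tek, Tie1 and Aplnr). Tek (ENSMUSG00000006386; GRCm38 chromosome 4, 94739289 to 94874976, plus strand), the angiopoietin receptor gene, came closest. It stood at 626 and 572 normalized counts in controls and at 737 and 849.6 in knockouts. The knockout pools lay above the controls, and the log2 fold change was 0.40 ± 0.09 (SE; 95% interval 0.19 to 0.61; adjusted p = 0.0924). In the authors' deposited table its adjusted p was 0.0807. Tie1, an orphan receptor that pairs with TEK, stood at 1383 and 1255 in controls and 1422 and 1479 in knockouts (log2 fold change 0.14 ± 0.07; adjusted p = 0.421, and 0.07 without control column 3).

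The VEGF receptor genes were close to equal between genotypes. Flt1 (ENSMUSG00000029648; GRCm38 chromosome 5, 147561604 to 147726011, minus strand) stood at 7012 and 6159.8 normalized counts in controls and 6549 and 6862 in knockouts. Kdr stood at 6838 and 6151 in controls and 6523 and 6634 in knockouts. For both genes the knockout pools lay between the control pools. The log2 fold change of Flt1 was 0.03 ± 0.07 (SE; 95% interval -0.12 to 0.18; adjusted p = 0.897) and that of Kdr 0.02 ± 0.06 (-0.11 to 0.15). Without control column 3 that of Flt1 was -0.07, and without knockout replicate 2 it was -0.01. Flt4, the VEGF-C receptor gene of lymphatic and fenestrated endothelium, had a log2 fold change of 0.05 ± 0.08 (SE).

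The VEGF co-receptor genes Nrp1 and Nrp2 stood at log2 fold changes of 0.08 ± 0.07 and 0.02 ± 0.09 (SE), and Eng, a co-receptor for TGF-beta family ligands, at 0.02 ± 0.06. Their 95% intervals all lay between -0.19 and 0.24. Aplnr, the apelin receptor gene, was scarce, at 35.8 and 13.6 normalized counts in controls and 52.0 and 38.4 in knockouts. Its log2 fold change of 0.98 ± 0.42 (SE) had a 95% interval of 0.03 to 1.92 and did not pass (adjusted p = 0.338). It was 1.64 without control column 2, where it was called (adjusted p = 0.0472), and 0.31 without control column 3 (adjusted p = 0.720).

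None of the 15 endothelial surface, junction and secreted protein genes passed the test, and their median log2 fold change was 0.06. It was 0.15 without control column 2 and -0.05 without control column 3. The 6 genes taken to define endothelium (Pecam1, Cdh5, Kdr, Plvap, Emcn and Esam) summed to 23663 and 20640.2 normalized counts in controls and to 22263 and 23926 in knockouts. The genotypes overlapped for each of the 6 genes. Plvap (ENSMUSG00000034845; GRCm38 chromosome 8, 71497765 to 71511752, minus strand) stood at 8465 and 6972 in controls and 7688 and 8937 in knockouts, a log2 fold change of 0.11 ± 0.10 (SE; 95% interval -0.11 to 0.33; adjusted p = 0.674). Without control column 3 it was -0.03.

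Of the adhesion genes, Pecam1, which encodes CD31 at endothelial cell contacts, stood at 2848 and 2364 in controls and 2759 and 2753 in knockouts. Cdh5, the VE-cadherin gene of adherens junctions, stood at 1746 and 1559 in controls and 1572 and 1650.2 in knockouts. Emcn, a sialomucin of capillaries and veins, stood at 2548 and 2555 against 2523 and 2704. The log2 fold changes of these genes were 0.09 ± 0.08, -0.03 ± 0.07 and 0.03 ± 0.06 (SE), with 95% interval bounds no farther from 0 than 0.27. Ptprb, a phosphatase gene whose product restrains TEK signalling, stood at 0.06 ± 0.10 on the same scale, and the guidance receptor gene Robo4 at 0.00 ± 0.08. Esam, an adhesion molecule of tight junctions, stood at 0.12 ± 0.08, the lectin-domain receptor gene Clec14a at 0.20 ± 0.10, and its matrix ligand Mmrn2 at 0.00 ± 0.08.

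Podxl (ENSMUSG00000025608; GRCm38 chromosome 6, 31519488 to 31563981, minus strand), which encodes an anti-adhesive sialomucin, had the smallest unadjusted p in the same class. It stood at 3704 and 3673 normalized counts in controls and at 4025 and 4121 in knockouts, with tight pairs and no overlap. The log2 fold change was 0.14 ± 0.05 (SE; adjusted p = 0.226). Egfl7, which encodes a vascular matrix protein, stood at 598 and 638 in controls and 714 and 698 in knockouts (0.19 ± 0.08; adjusted p = 0.312), and 64 of its exon bases are shared with a gene on the opposite strand. Vwf was scarce and variable, at 89.9 and 44.8 in controls and 173.8 and 93.0 in knockouts, so the ranges were separated by little. Its log2 fold change was 0.99 ± 0.36 (SE; adjusted p = 0.255). Leaving out a control library moved it to 1.48 (column 2) or 0.50 (column 3), and leaving out a knockout library to 0.54 (replicate 1) or 1.44 (replicate 2), with no call in any of these fits.

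The secreted proteoglycan gene Esm1, a target of VEGF signalling in endothelium, stood at 5931 and 5679.5 in controls and 5640.0 and 5609 in knockouts. Its log2 fold change was -0.05 ± 0.05 (SE), with a 95% interval of -0.15 to 0.06. Nos3, the endothelial nitric oxide synthase gene, had a log2 fold change of -0.03 ± 0.14, and Gpihbp1, which carries lipoprotein lipase to the capillary surface, one of 0.00 ± 0.13. Exons of Nos3 overlap those of an antisense neighbour by 294 bases, and whether counting used strand is not given in the sources used here, so its values are uncertain.

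**Figure D4:**
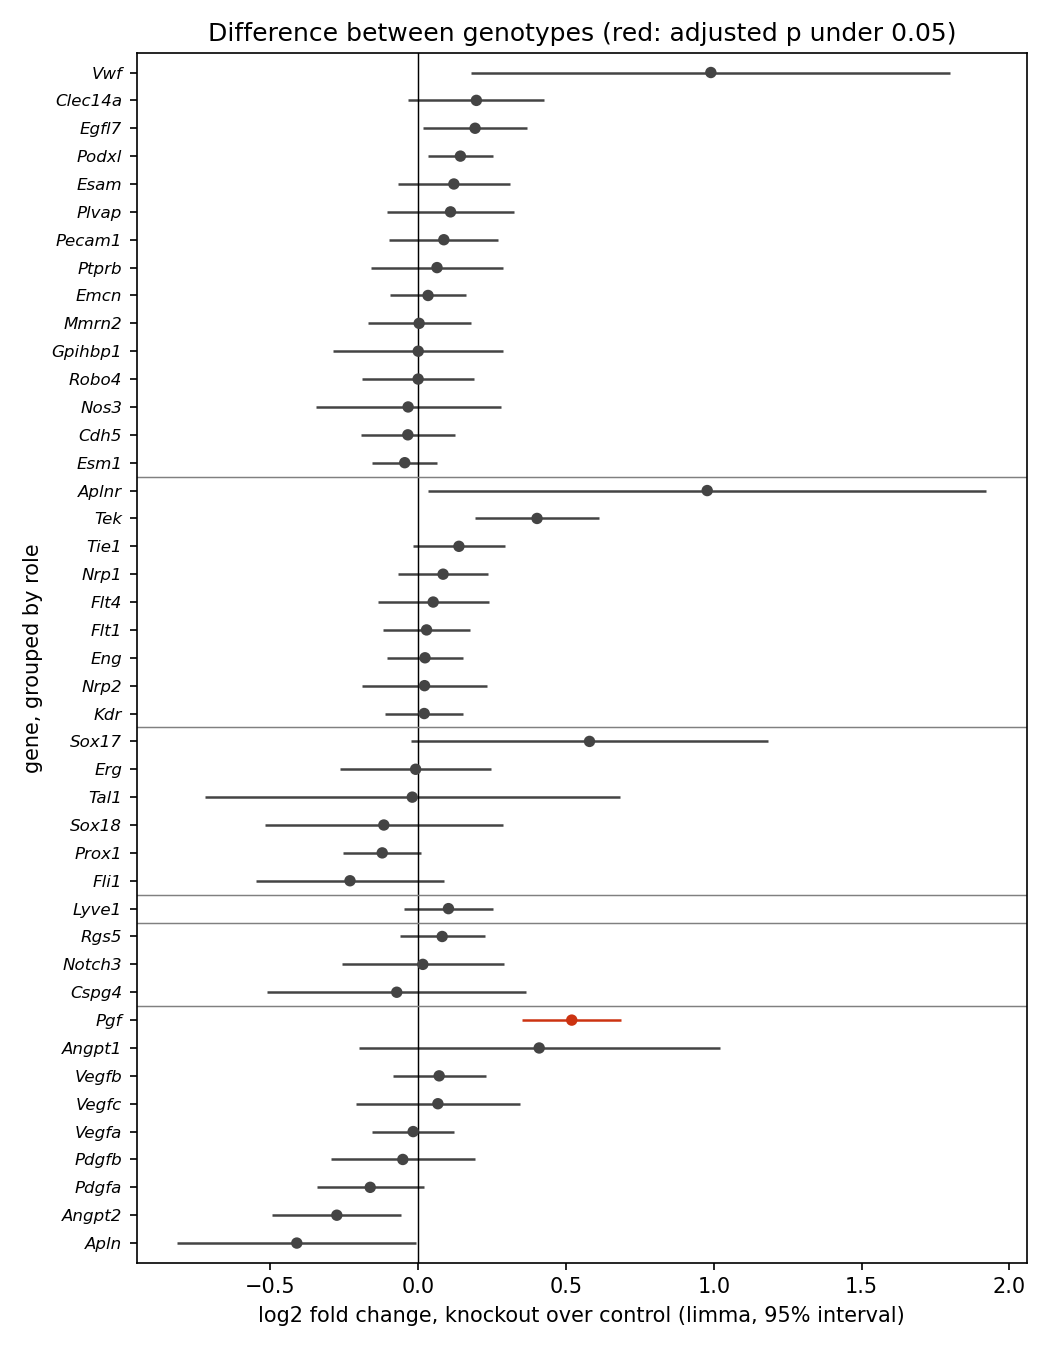
Log2 fold change, knockout over control, of the 43 genes with the 95% interval from limma, grouped by role; red marks an adjusted p under 0.05. Pgf, at 0.52, is the only gene in red, and the intervals of 35 of the 43 genes include 0.

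None of the 6 transcription factor genes passed the test, and their median log2 fold change of -0.07 had no stable sign. It was 0.10 without control column 2 and 0.07 without knockout replicate 1, with 4 of the 6 above 0 in each case against 1 of 6 with all libraries. The ETS factor genes Erg and Fli1, which maintain endothelial identity, stood at 361 and 336 against 319.5 and 375, and at 155 and 178 against 140.5 and 143. Their log2 fold changes were -0.01 ± 0.11 and -0.23 ± 0.14 (SE). Of the SOXF genes, which act in arterial and lymphatic specification, Sox18 overlapped between genotypes (log2 fold change -0.12 ± 0.18, and 0.16 without control column 2). Sox17 (ENSMUSG00000025902; GRCm38 chromosome 1, 4490931 to 4497354, minus strand) was scarce, at 30.7 and 31.2 in controls and 38.5 and 56.6 in knockouts (0.58 ± 0.27; adjusted p = 0.378, and 0.31 without knockout replicate 2). Tal1, a haematopoietic and endothelial factor gene, had a log2 fold change of -0.02 ± 0.31, from 37.0 to 72.5 normalized counts per library. It was 0.46 without control column 2 and -0.50 without control column 3.

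Prox1 (ENSMUSG00000010175; GRCm38 chromosome 1, 190118035 to 190170714, minus strand), the master regulator of lymphatic endothelium, is also known in pancreatic endocrine cells. It stood at 5036 and 5449.6 normalized counts in controls and at 4975 and 4662 in knockouts. Its log2 fold change was -0.12 ± 0.06 (SE; 95% interval -0.25 to 0.01; adjusted p = 0.398), without overlap, and 133 exon bases are shared with an antisense gene. Lyve1 (ENSMUSG00000030787; GRCm38 chromosome 7, 110850607 to 110863239, minus strand), a hyaluronan receptor of lymphatic vessels and of some macrophages, stood at 1027 and 1026 in controls and 1069 and 1136 in knockouts (0.10 ± 0.07; adjusted p = 0.556). Of 6 other lymphatic markers, 3 were measured above the filter and none passed the test, with a median of 0.00, which was 0.16 without control column 2 and -0.15 without control column 3. Pdpn and Mmrn1, which mark lymphatic endothelium, were below the filter, Pdpn at a mean of 4.06 normalized counts, and Ccl21a was listed at 0 in every library.

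The pericyte genes overlapped between the genotypes, and none of 3 passed the test. Rgs5 (ENSMUSG00000026678; GRCm38 chromosome 1, 169655501 to 169695813, plus strand) stood at 10077 and 8855 normalized counts in controls and at 9873 and 10117 in knockouts, with a log2 fold change of 0.08 ± 0.06 (SE; 95% interval -0.06 to 0.23; adjusted p = 0.632). Without control column 3 it was -0.01. Notch3, a mural cell receptor, stood at 1024 and 783 in controls and 962 and 852 in knockouts. Cspg4, which encodes the NG2 proteoglycan, stood at 252 and 162 in controls and 191.5 and 193 in knockouts. Their log2 fold changes were 0.02 ± 0.12 and -0.07 ± 0.19 (SE). Exons of Notch3 share 488 bases with an opposite-strand gene.

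Wider lists of vascular genes were read from the same fit. Of 36 measured endothelial markers outside the list of 45, none passed the test, with a median log2 fold change of 0.17. Knockout values lay above both controls for 19 of these 36, or 52.8%, beside 22.0% of all tested genes. At an unadjusted limma p under 0.05, 10 of the 36 were higher and none lower. Of all 16589 tested genes, 1118 were higher and 1218 lower at that p. Control column 3 was the lowest library for 27 of the 36. Adgrl4 and Cd93, the most abundant of them, had log2 fold changes of 0.10 ± 0.07 and 0.05 ± 0.05 (SE). The median of the 36 was 0.28 without control column 2 and 0.08 without control column 3. The difference in median between the wider list and the 43 genes was not tested.

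Of 16 other pericyte and smooth muscle markers none passed, with a median log2 fold change of 0.13, which was 0.33 without control column 2 and -0.01 without control column 3. Anpep, an aminopeptidase also found outside pericytes, stood at 0.03 ± 0.05, and Mcam, an adhesion molecule, at -0.13 ± 0.08. Abcc9, a potassium channel regulator of pericytes, stood at 0.27 ± 0.16 (SE), with 408 and 279 normalized counts in controls and 391 and 421 in knockouts. None of 22 other angiogenic signalling genes passed (median 0.01, with 0.08 without control column 2 and -0.07 without control column 3). Thbs1, which encodes the angiogenesis inhibitor thrombospondin 1, stood at 5448 and 4258 in controls and 4083 and 3956 in knockouts (log2 fold change -0.26 ± 0.10; adjusted p = 0.273). Hif1a, the hypoxia-inducible factor gene, stood at -0.05 ± 0.06, with 330 exon bases shared with an opposite-strand gene. None of 12 HIF target genes passed (median 0.01), with Ndrg1 at 0.00 ± 0.07 and P4ha1 at 0.01 ± 0.07.

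Markers of other cell types were read beside these results. Stellate cell and fibroblast markers had a median log2 fold change of 0.70 over 10 genes. Of these, the proteoglycan gene Dcn rose, from 174.7 and 114.0 normalized counts in controls to 408 and 296 in knockouts (1.29 ± 0.21; adjusted p = 0.0449), and 9 did not pass. Acinar markers had a median of -0.74 over 12 genes. Of these, the trypsinogen gene Try4 fell, from 461 and 461 to 280.0 and 273 (-0.73 ± 0.09; adjusted p = 0.0251), and 11 did not pass. Schwann cell markers had a median of 0.58 over 7 genes, red blood cell markers 0.36 over 5, lymphocyte markers 0.25 over 2, duct markers 0.16 over 7 and macrophage markers 0.01 over 10, none with a called gene. The Schwann cell median was 0.30 without control column 2 and 0.71 without control column 3, and the macrophage median 0.08 and -0.05. The part of these cell types in the vascular values was not tested. The calls of Dcn and Try4 were lost without the mean-variance trend, where no gene was called. With the trend and all libraries, 0.247% of all tested genes were called higher and 0.374% lower.

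**Figure D5:**
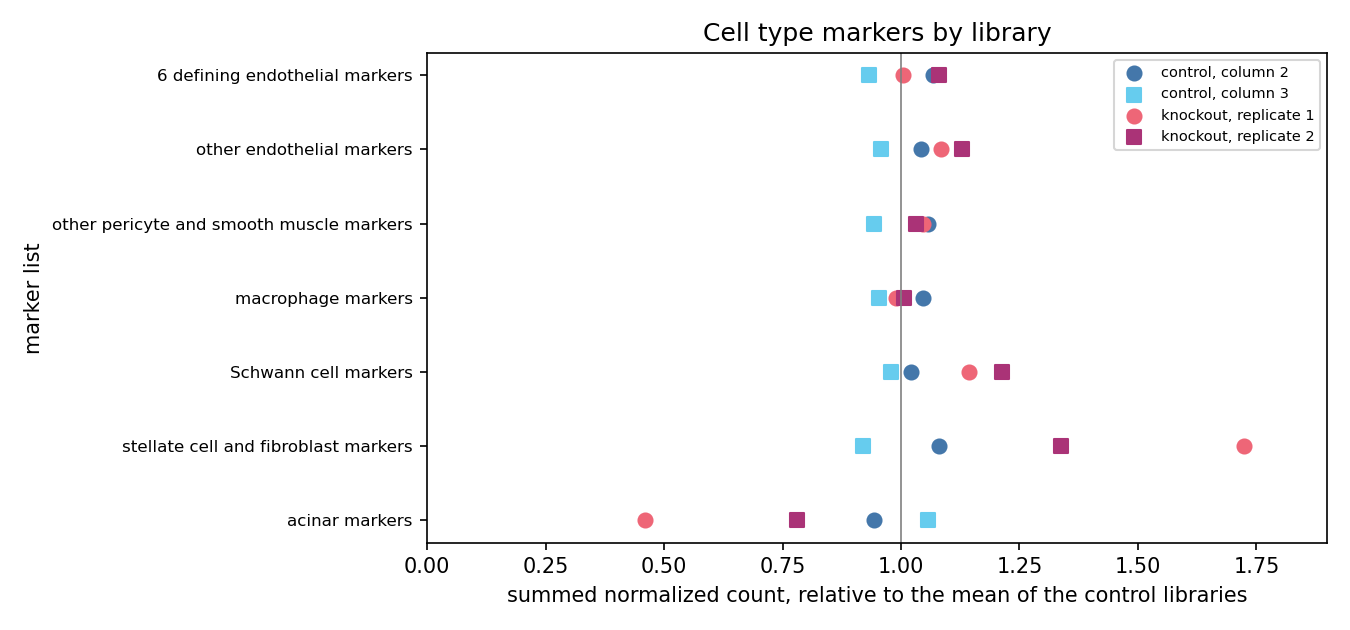
Summed normalized count of marker lists in each library, relative to the mean of the control libraries (1 on the axis). The 6 defining endothelial markers of all libraries lie close to 1, with control column 3 lowest. Both knockout pools lie above the controls for other endothelial markers, Schwann cell markers and, farthest, stellate cell and fibroblast markers. They lie below the controls for acinar markers.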

How the data were processed

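The authors deposited normalized read counts of 55487 genes as a signal per gene and library, relative to library size per the file name. Each library's smallest step, the worth of 1 read, divided 100% of its values into whole reads (tolerance 0.01). Per the submitters' processing notes, STAR 2.5.1b, featureCounts 1.6.0, DESeq2 1.22.2 and GRCm38 were used, with no roles given; the annotation and the use of strand are not given in the sources used here. The same table deposited by the authors holds a log2 fold change of control against knockout (its sign turned round here), the standard error, a test statistic (a score, not used) and p-values.

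The 16589 genes that reached 10 in 2 or more libraries entered limma 3.58.1 (R 4.3.3), fitted to log2(value + 1) with a mean-variance trend; tests were two-sided with Benjamini-Hochberg adjustment. Adding 1 shrinks the fold change of scarce genes. On the recovered reads, edgeR 4.0.16 and DESeq2 1.42.0 were alternatives, beside other pseudocounts, filters, scalings and variance models and each library left out. Replicates are separate pools; chi-square over degrees of freedom between them was 10.1 in controls and 9.85 in knockouts. With 2 pools a side, the smallest two-sided p of an exact permutation test is 0.333. In 5 simulations of this comparison with 55487 genes, 86% of 100 genes changed 1.5-fold and 97.2% of 100 changed 2-fold were recovered, and 5.24% of calls were unchanged genes. Real recovery can be lower, since genes were drawn independently and changed only at means of 50 or more. Each simulated gene also took its variance from a fitted trend, with no scatter of genes around it, which favours the fit with a trend.

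The listed genes, their roles and the marker lists were chosen with earlier results of these data known. Full statistics were given for called members and, in each role class, for the one with the highest mean normalized count (not divided by length) and the one with the smallest p; other members were named with values. Of the marker lists, called and abundant genes were named; Cldn5, Abcc9, Pdpn, Mmrn1 and Ccl21a were added after their values were seen. Exon lengths, positions and overlaps are those of GENCODE M21 (GRCm38), in which 99.5% of the identifiers were found. Endocrine cell markers are not reported here.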

Additional observations from a re-analysis of the deposited data

How the results depend on the processing

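The count of all genes called higher and lower, 41 and 62, was 1 and 1 with no filter on low values, 19 and 32 with a filter at 50, 0 and 0 without the mean-variance trend in limma (1841 at an unadjusted p under 0.05), 85 and 124 with robust empirical Bayes, and 111 and 203 with DESeq2, which left 42106 adjusted p-values NA. Leaving out each library gave 49 to 178 higher and 47 to 219 lower, with the highest counts without control column 2. The count of listed genes called higher, 1, was 0 with no filter and 0 without the trend, and 0 to 2 when each library was left out; none was called lower under any alternative. The median log2 fold change of the listed genes ranged from -0.047 to 0.12 when each library was left out and between 0.02 and 0.05 under the other alternatives. Of 149 values of 10 named genes under the alternatives, 139 kept direction and side of the threshold, 3 lost a call, all for Pgf, and 7 changed direction, none of them a called gene. Vegfa was 0.0019 with a common upper quartile and ranged from -0.087 to 0.053 when each library was left out. Over the same settings Plvap ranged from -0.030 to 0.25, Rgs5 from -0.012 to 0.17 and Flt1 from -0.065 to 0.12. The causes were not tested. The log2 fold change of Pgf lay between 0.44 and 0.60 under every alternative, and its adjusted p between 0.000413 (DESeq2) and 0.326. No paired analysis was possible because the control columns carry the numbers 2 and 3 and could not be matched to the replicate numbers of the labels. With 2 pools per genotype the precision is low, and the scarcest values rest on as few as 14 reads.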
